A study of Mus musculus with 3 samples.

Results

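Collagen genes were taken as the rows of the count table whose symbol has the form Col, a number, a and a second number, and 44 of the 46983 gene rows matched. The symbols follow the collagen types, so that Col1a1 and Col1a2 encode the chains of type I. Each gene was placed in a structural class from general knowledge of the proteins. There were 11 fibrillar genes, 6 of basement membranes, 6 of beaded filaments, 9 FACITs (fibril-associated collagens with interrupted triple helices), 4 transmembrane genes, 3 network-forming genes, 2 multiplexins, 1 anchoring fibril gene and 2 others, Col26a1 and Col28a1. The classes were not derived from the counts, and no expression value was used to choose the genes.

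RNA was measured by bulk sequencing in 3 libraries of sorted cells from the leptomeninges of mice that had received a vehicle. The labels call this material a pia-enriched fraction, the pia being the innermost membrane on the brain surface. The tissue was microdissected, dissociated and sorted by flow cytometry, and all libraries belonged to 1 group, numbered 1 to 3, so that no treatment comparison was possible. The sorting gate, the purpose of the vehicle, and the strain, genotype, age and sex of the mice are not given in the sources used here. Nothing in the labels says that the libraries came from separate animals, so SDs and p-values measure only the spread between these libraries, which may be technical.

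Collagens are trimers in which chains wind around each other as a triple helix, and the helix needs a glycine as the first residue of every Gly-X-Y triplet. Fibrillar types such as I, III and V form the tension-bearing fibrils of connective tissue, type IV forms the sheet of basement membranes, type VI forms beaded microfilaments, and FACITs and multiplexins attach to fibrils or basement membranes. In the leptomeninges, fibroblasts lie between the arachnoid and the pial basement membrane and are known as a main source of fibrillar collagen in the coverings of the brain.

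The repeat can be read in the coding sequence, and the stretches below are shown because they mark what the classes share and where they part. They were taken from GENCODE M21 transcripts on GRCm38, the assembly called mm10 in the submitters' processing notes, and read 5′ to 3′ on the coding strand. Capitals mark each glycine codon that opens a triplet. The first 4 are exons of 54 bases, each the first of that length inside the long helix of a fibrillar gene. These are exon 8 of Col1a1 (chr11:94939904-94939957, plus strand), exon 8 of Col1a2 (chr6:4515481-4515534, plus strand), exon 6 of Col3a1 (chr1:45325360-45325413, plus strand) and exon 10 of Col5a2 (chr1:45422386-45422439, minus strand).
Col1a1: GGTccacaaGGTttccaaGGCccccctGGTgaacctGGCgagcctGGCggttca
Col1a2: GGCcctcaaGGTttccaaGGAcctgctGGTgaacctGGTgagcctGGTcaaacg
Col3a1: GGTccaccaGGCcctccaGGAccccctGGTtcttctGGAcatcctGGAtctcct
Col5a2: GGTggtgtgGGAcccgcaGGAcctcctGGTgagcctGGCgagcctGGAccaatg
Each holds 6 complete triplets with no interruption, and the exons of Col1a1 and Col1a2, whose chains join in 1 trimer, have 42 of 54 bases identical. The next 3 stretches come from other classes. For Col6a1 this is exon 9 (chr10:76719623-76719676, minus strand). For Col8a1 it is the first 54 bases of the longest unbroken run of triplets, in exon 4 (chr16:57628039-57628092, minus strand). For Col4a1 it is 60 bases of exon 21 (chr8:11235141-11235200, minus strand).
Col6a1: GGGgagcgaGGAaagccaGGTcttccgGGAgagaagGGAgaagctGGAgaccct
Col8a1: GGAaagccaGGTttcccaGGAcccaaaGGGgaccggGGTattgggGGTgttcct
Col4a1: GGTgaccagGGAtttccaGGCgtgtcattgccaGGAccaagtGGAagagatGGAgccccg
The stretch of Col4a1, a basement membrane gene, is interrupted after 3 triplets by 2 codons (6 bases) that fall outside the repeat, and the triplets then start again.

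The 3 libraries held 21002860, 28704952 and 25338616 gene counts, and levels are given as CPM, counts per 1000000 of the TMM-scaled library size. A level of 3 counts, the limit that a count of 0 allows, is 0.152, 0.101 and 0.116 CPM in the 3 libraries. Without molecular identifiers, copies made by PCR cannot be told from separate molecules, so this limit covers counting error only. All 7 markers of the fibroblast list exceeded 100 CPM and summed to 19984, 12944 and 15520 CPM, led by Mgp and Dcn. The 6 endothelial markers, with 0 above 100 CPM, summed to 61.8 to 71.8 CPM, and the 6 mural cell markers to 2682, 2380 and 4585 CPM. Library 1 stood apart in its mitochondrial share (0.918% against 3.60% and 3.46%) and in its choroid plexus and macrophage markers, which summed to 80.6 and 19.9 CPM there and to at least 1670 and 166 CPM in the others. Enpp2 carried the choroid plexus sum. Of the 6 macrophage markers 5 passed the low-count filter. Of these, edgeR called 4 variable between libraries, and the remaining tested marker was lowest in library 2, not in library 1. Of the 6 choroid plexus markers edgeR called 3 variable. In bulk RNA, fewer cells of a type and less RNA per cell cannot be told apart.

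Most of the family was detected, and a few genes carried nearly all of it. Past the low-count filter came 37 of 44 collagens (84.1%), against 30.7% of all gene rows. The collagen genes took 2.76%, 3.55% and 3.17% of the gene counts of libraries 1, 2 and 3, or 3.16% ± 0.393 (SD, n = 3). The share was lowest in library 1. By mean CPM, 37 collagens exceeded 1 CPM, 26 exceeded 10, 15 exceeded 100 and 6 exceeded 1000. Of all gene rows, 30.2% exceeded 1 CPM and 3.90% exceeded 100 CPM. To compare genes with each other, CPM was divided by the length of all annotated exons of a gene in kilobases. On this scale Col1a2, Col1a1 and Col6a1 made up 62.04% of the summed level of the 44 genes, the top 5 made up 81.6% and the top 12 made up 96.5%.

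**Figure D1:**
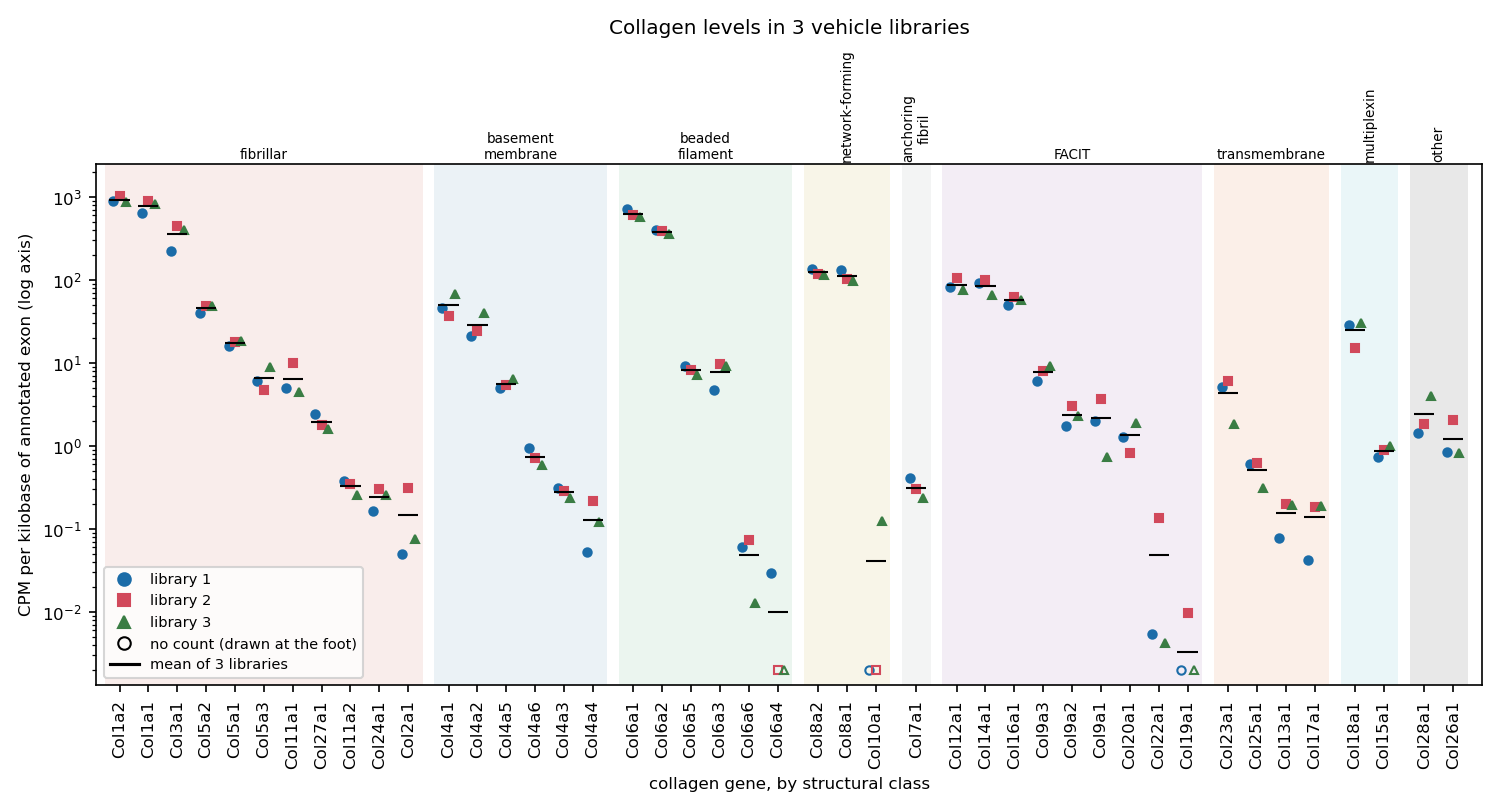
Level of each of the 44 collagen genes in CPM per kilobase of annotated exon (log axis), by structural class, with 1 symbol for each library and a bar at the mean. Col1a2 leads at a mean of 925, the fibrillar and beaded classes hold the 5 highest genes, and open symbols at the foot mark libraries with no count.

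Among the fibrillar genes, the chains of type I, the main collagen of most connective tissue, were the highest. Col1a2 (ENSMUSG00000029661.16, chr6:4504814-4541544, plus strand) stood at 891, 1012 and 873 CPM per kilobase in libraries 1, 2 and 3, a mean of 925 ± 75.3 (SD, n = 3). Col1a1 (ENSMUSG00000001506.10, chr11:94936224-94953042, plus strand) stood at 630.4, 878 and 822 CPM per kilobase, a mean of 777 ± 130. Both genes were highest in library 2, and in each library Col1a2 was above Col1a1. Col3a1, whose chain forms the homotrimer of type III that shares fibrils with type I, stood at 219, 439.7 and 398 CPM per kilobase. Its level in library 1 lay well below those of the other libraries, the widest spread among the 12 highest genes on the log2(CPM + 1) scale, with a range of 1.002.

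Type V, which is built into type I fibrils and is known for starting their assembly, was far lower. Col5a2 stood at 40.2, 48.8 and 48.3 CPM per kilobase in libraries 1 to 3, Col5a1 at 15.9, 17.9 and 18.1, and Col5a3, an alternative type V chain, at 5.95, 4.67 and 8.83. The order Col5a2, Col5a1, Col5a3 held in all 3 libraries. Type XI, the counterpart of type V in cartilage fibrils, was represented by Col11a1, at 4.98, 9.94 and 4.39 CPM per kilobase, with library 2 highest. Its partner Col11a2 stood at only 0.382, 0.342 and 0.252 CPM per kilobase. Col2a1, the defining fibrillar gene of cartilage, had 9, 86 and 18 counts and a mean of 0.146 CPM per kilobase. The remaining fibrillar genes, Col27a1 and Col24a1, had means of 1.93 and 0.241 CPM per kilobase.

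Type VI, the beaded filament collagen that surrounds cells and links them to the interstitial matrix, held the next place. Col6a1 (ENSMUSG00000001119.7, chr10:76708792-76726168, minus strand) stood at 710.1, 598 and 566 CPM per kilobase in libraries 1 to 3, and Col6a2 (chr10:76595762-76623630, minus strand) at 403, 385 and 354. Both were highest in library 1 and lowest in library 3, the reverse of the low library 1 value of the type I and III genes Col1a1 and Col3a1. Col6a3, which encodes the longest of the 3 classical type VI chains, stood at 4.67, 9.65 and 9.02 CPM per kilobase. It was lowest in library 1, where both of its partners were highest. Of the chains that can take its place, Col6a5 had a mean of 8.09 ± 0.962 CPM per kilobase, not separated from Col6a3 beyond the spread, and Col6a6 and Col6a4 did not pass the filter.

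The network-forming class was carried by type VIII, a short-chain collagen of vessel walls and of the membrane beneath the corneal endothelium. Col8a2 stood at 136, 118 and 116 CPM per kilobase in libraries 1 to 3 and Col8a1 at 132, 102 and 97.5. Both were highest in library 1. Col10a1, the network-forming collagen of hypertrophic cartilage, had 0, 0 and 10 counts and did not pass the filter.

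FACITs, which coat fibrils, were led by types XII, XIV and XVI. Col12a1 stood at 81.5, 104 and 75.8 CPM per kilobase in libraries 1 to 3, Col14a1 at 92.1, 98.5 and 65.0, and Col16a1 at 49.7, 62.2 and 57.8. All were highest in library 2, and the ranges of Col12a1 and Col14a1 overlapped. Type IX, the FACIT that decorates cartilage fibrils, was lower. Col9a3 stood at 6.06, 7.99 and 9.20 CPM per kilobase, Col9a2 at 1.73, 3.05 and 2.26, and Col9a1 at 1.97, 3.71 and 0.738. The type IX genes did not share a pattern over the libraries, since Col9a1 was lowest and Col9a3 highest in library 3. Of the other FACITs, Col20a1 had a mean of 1.33 CPM per kilobase, and Col22a1 and Col19a1 did not pass the filter.

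Basement membrane collagen was led by the chains of the ubiquitous type IV trimer. Col4a1 (chr8:11198423-11312826, minus strand) stood at 45.7, 37.04 and 67.7 CPM per kilobase in libraries 1 to 3 and Col4a2 (chr8:11312805-11449287, plus strand) at 20.97, 24.1 and 39.4. Both were highest in library 3. The chains of the minor type IV trimers, found in kidney, lens and other specialised basement membranes, followed well below. Col4a5 stood at 5.02, 5.45 and 6.38 CPM per kilobase and Col4a6 at 0.938, 0.704 and 0.580. The values of Col4a3 were 0.314, 0.283 and 0.232 CPM per kilobase and those of Col4a4 0.0524, 0.215 and 0.120, with library 1 highest for the first and lowest for the second.

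The multiplexins lie in basement membrane zones and carry C-terminal fragments that are known as inhibitors of vessel growth. Col18a1 stood at 28.5, 15.3 and 30.1 CPM per kilobase in libraries 1 to 3, lowest in library 2, and Col15a1 at 0.732, 0.884 and 1.002. Of the transmembrane collagens, Col23a1 was highest, at 5.09, 5.999 and 1.83 CPM per kilobase, with library 3 low. Col25a1 had a mean of 0.510 CPM per kilobase, and Col13a1 and Col17a1 did not pass the filter. The anchoring fibril gene Col7a1, known for holding epidermis to dermis, stood at 0.408, 0.304 and 0.232 CPM per kilobase. Col28a1, a collagen of peripheral nerve, stood at 1.41, 1.81 and 4.03 CPM per kilobase, highest in library 3, and Col26a1 had a mean of 1.224.

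By class, fibrillar genes held 51.0%, 60.2% and 58.9% of the summed level per kilobase of all collagens in libraries 1 to 3, a mean of 56.7% ± 4.98 (SD, n = 3). Beaded filament genes held 31.7%, 25.0% and 25.4%, a mean of 27.4% ± 3.797. Library 1 thus had the lowest fibrillar and the highest beaded share. FACITs (6.45% ± 0.629) and network-forming genes (6.27% ± 1.11) followed with shares closer to each other than their spread. Basement membrane genes held 2.28% ± 0.731, with 3.10% in library 3 against 2.06% and 1.69%. The multiplexins held 0.690% ± 0.249, the transmembrane genes 0.135% ± 0.0584, the 2 others 0.0967% ± 0.0340 and Col7a1 0.00845% ± 0.00270. The length used moved the larger shares. With the longest annotated transcript in place of all exons, the fibrillar share was 64.3% and the beaded share 23.1%.

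**Figure D2:**
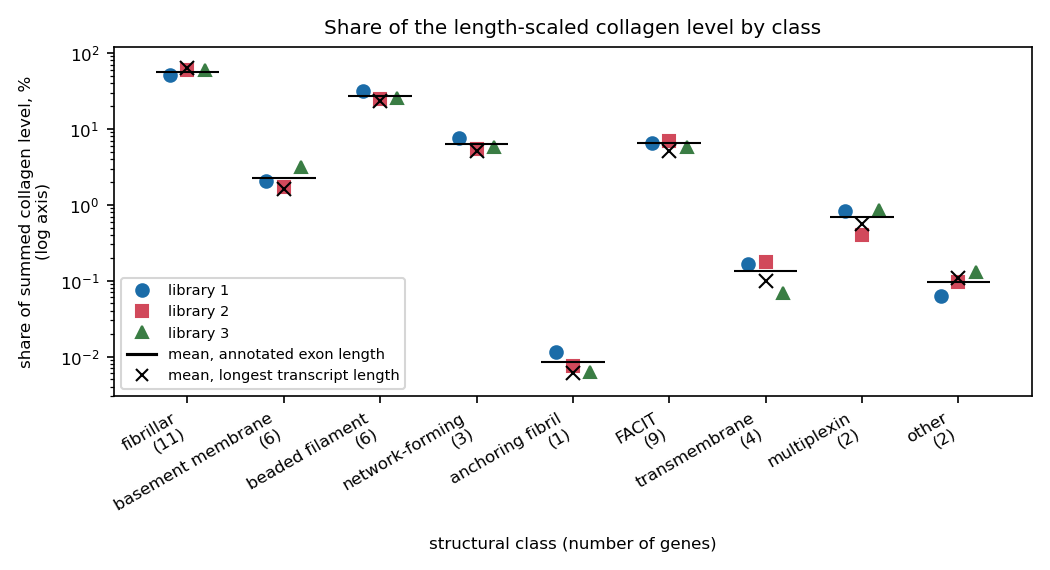
Share of the summed collagen level held by each structural class (%, log axis), with 1 symbol for each library, a bar at the mean by annotated exon length and a cross at the mean by longest transcript. Fibrillar genes held 51.0% to 60.2% and beaded filament genes 25.0% to 31.7%, above all other classes in each library.

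Most neighbouring genes in the order of levels did not differ beyond their spread. Of the 43 steps between neighbours ranked by mean level per kilobase, 10 had the same direction in 3 of 3 libraries and a mean difference above its SD, and 33 did not. Among the 12 highest, 5 of 11 steps met this, which were Col1a2 above Col1a1, Col6a1 above Col6a2, Col3a1 above Col8a2, Col8a2 above Col8a1, and Col14a1 above Col16a1. Col1a1 and Col6a1 changed places between libraries, as did Col6a2 and Col3a1, so these neighbours could not be ordered beyond their spread. Per kilobase of longest transcript, the step from Col8a2 to Col8a1 was reversed in 3 of 3 libraries, and Col6a1 above Col6a2 and Col14a1 above Col16a1 each held in only 2 of 3. The 12 highest genes were the same 12 by both lengths. In 9 collagens the annotated exons together exceeded the longest transcript by more than 1.5 times; in Col1a2 they came to 12426 bp against 5348 bp.

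Chains that share a trimer, chains that can replace each other, types that share a fibril and the 2 multiplexins were then compared within each library, over 18 pairs in which both genes passed the filter. With 3 libraries the two-sided exact sign-flip permutation test cannot give a p below 0.25 (0.265 after Benjamini-Hochberg adjustment over the 18 pairs), a value that 17 of the 18 pairs had. The size and its spread are therefore given, as log2 ratios of levels per kilobase. Type I trimers hold more Col1a1 than Col1a2 chains, whereas the mRNA ratio of Col1a1 to Col1a2 was -0.50, -0.20 and -0.09 in libraries 1 to 3, a mean of -0.26 ± 0.21 (SD, n = 3). Col1a2 was thus 1.2-fold higher by annotated exon length, and 2.52-fold higher by longest transcript, in all 3 libraries under both. The ratio of Col3a1 to Col1a1 was -1.52, -0.998 and -1.05, lowest in library 1, and its mean was -0.52 by longest transcript.

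Type V and type I, which meet in 1 fibril, were far apart. Col5a1 was 44.6-fold lower than Col1a1 per kilobase, with log2 ratios of -5.31, -5.62 and -5.51. Col5a1 to Col5a2 was the steadiest pair, at -1.34, -1.45 and -1.42, a mean of -1.40 ± 0.06, and -1.92 by longest transcript. The ratio of Col5a3 to Col5a1 was -1.46 ± 0.45 and that of Col11a1 to Col5a1 -1.52 ± 0.61. Col11a1 exceeded Col11a2 by 4.23 ± 0.58 on the log2 scale per kilobase, highest in library 2.

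In type VI, the classical trimer takes 1 chain each of Col6a1, Col6a2 and Col6a3. Col6a1 to Col6a2 was 0.82, 0.63 and 0.68 on the log2 scale per kilobase of annotated exon, a mean of 0.71 ± 0.10, but 0.04 by longest transcript and -0.21 by coding length. Which of the pair was higher thus rested on the length used. Col6a3 lay far below both under every length tried. Its log2 ratio to Col6a1 was -7.25, -5.95 and -5.97, which is 83.9-fold lower on average and 75.8-fold by longest transcript. Against Col6a2 it was 51.3-fold lower, and 73.5-fold by longest transcript. Library 1 gave the lowest ratio in both pairs.

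In type IV, Col4a1 exceeded Col4a2 by 1.12, 0.62 and 0.78 on the log2 scale per kilobase, a mean of 0.84 ± 0.26, and by 0.98 by longest transcript. Col4a1 was higher in 3 of 3 libraries. Col4a5 exceeded Col4a6 by 2.95 ± 0.52, and Col4a3 was 20.4-fold lower than Col4a5, its partner in the trimer of kidney glomeruli. Col4a3 to Col4a4 ran from 0.40 to 2.58, the widest spread of the 18 pairs, and rested on 11 counts of Col4a4 in library 1. Among the other pairs, Col8a1 to Col8a2 was -0.17 ± 0.11 by annotated exon and 0.40 by longest transcript, so its direction also rested on the length. Col9a3 exceeded Col9a2 by 1.74 ± 0.33. Col9a1 to Col9a2 was 0.19, 0.28 and -1.61, the only pair that changed direction between libraries (exact permutation p = 1.0). Col15a1 was 27.2-fold lower than Col18a1.

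**Figure D3:**
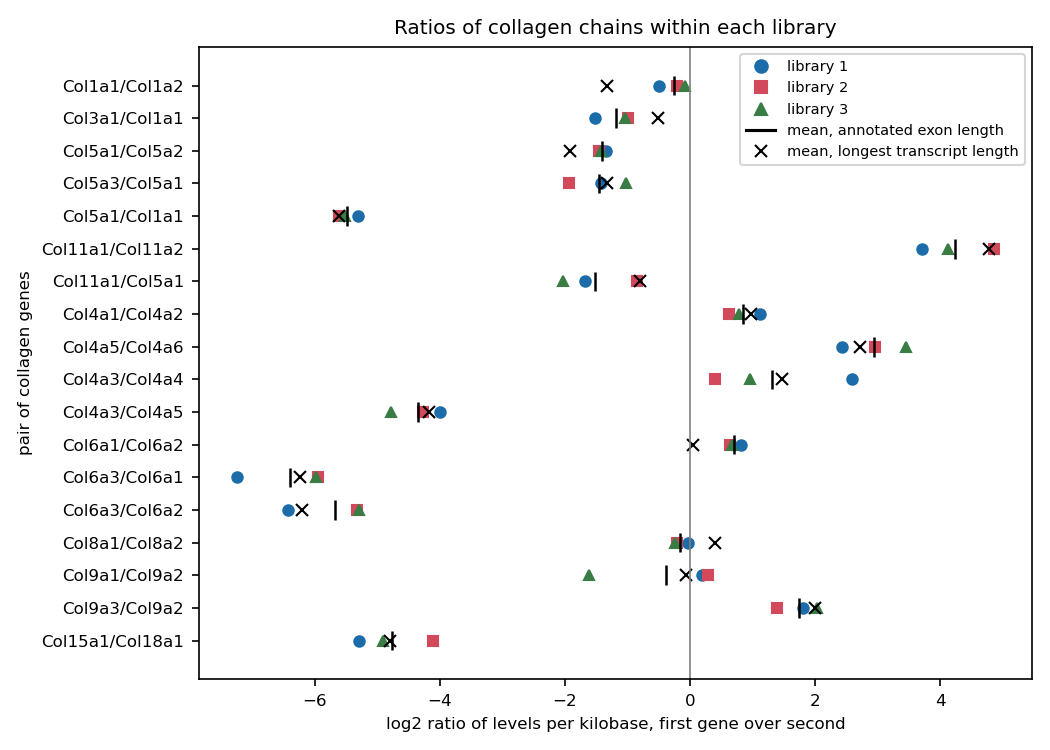
Log2 ratio of the levels per kilobase of the first over the second gene of 18 collagen pairs, with 1 symbol for each library, a bar at the mean by annotated exon length and a cross at the mean by longest transcript. Points left of the line at 0 mean that the second gene was higher; Col6a3 lies farthest left, at -5.30 to -7.25 against its partners, and Col9a1/Col9a2 is the only pair on both sides of the line by annotated exon length.

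The collagens were spread between the libraries about as far as genes in general. By edgeR's goodness-of-fit test with Benjamini-Hochberg adjustment, 61 of 14409 genes were called variable between the 3 libraries (0.423%), and 0 of the 37 collagens were. The smallest adjusted p of a collagen in edgeR was 0.336, for Col2a1. At an unadjusted p under 0.05 there were 2 collagens (5.41%), Col2a1 and Col9a1, against 7.31% of all genes. Over the 9 other settings tried the count called was 0 in 8 and 1 without replicate 1, where Col9a1 was called, and the count at unadjusted p under 0.05 was 0 to 9. In simulated counts of 14409 genes this test recovered 113 of 200 genes changed 8-fold in library 1, 19 of 200 changed 4-fold and 0 of 200 changed 2-fold, so smaller differences were not detectable with these libraries. The median range between libraries on the log2(CPM + 1) scale was 0.59 for the collagens and 0.67 for all genes tested, and the range exceeded 1 in 10 of 37 collagens (27.0%) and in 26.1% of all genes.

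The 10 collagens with a range above 1 were mostly low genes, Col9a1, Col23a1, Col2a1, Col28a1, Col26a1, Col11a1, Col4a4, Col20a1, Col6a3 and Col3a1. Col9a1 had the widest, 2.06, with 10.0, 18.8 and 3.74 CPM in libraries 1 to 3 (edgeR unadjusted p = 0.0234, adjusted p = 0.505). Of the 37 collagens, 17 were highest in library 2 (45.9%, against 32.8% of all genes tested), 10 in library 1 and 10 in library 3 (27.0% each, against 39.6% and 27.6% of all genes). By class, 7 of 11 fibrillar and 5 of 7 FACIT genes past the filter were highest in library 2, 3 of 4 beaded filament genes and both type VIII genes in library 1, and both multiplexins in library 3. Across all genes with a value, GC content went with the ratio of library 1 to the other libraries (Spearman's rho 0.608 across 14375 genes, which are not independent), whereas across the 37 collagens rho was -0.0367. These coefficients describe genes within the same 3 libraries and carry no p. The collagens spanned a narrower range of GC content, 45.9% to 62.9% against 31.0% to 70.7%, so the coefficients are not directly comparable.

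Some marker lists were highest in the same library as some of these genes. Of the 10 collagens that were highest in library 3, those farthest above library 2 were Col20a1, Col28a1, Col18a1, Col5a3, Col4a1 and Col4a2. In that library the 6 mural cell markers, all above 10 CPM and led by Acta2 and Tagln, summed to 4585 CPM against 2682 and 2380. The endothelial sum was 61.8, 71.2 and 71.8 CPM, and 0 markers of both lists were at 0 in all libraries. Other lists were also highest in library 3, and not all of them are reported here. Those given had sums of 221, 259 and 542 CPM for oligodendrocyte, 19.9, 166 and 464 CPM for macrophage, and 80.6, 1670 and 2421 CPM for choroid plexus markers. The part of these cells in the collagen levels was not tested. Of the genes of cartilage fibrils, Col2a1, Col9a1, Col9a2 and Col11a1 were highest in library 2, Col11a2 in library 1 and Col9a3 in library 3. The 6 cartilage markers were also divided. Chad (3296, 895 and 384 CPM) and Comp were highest in library 1, and Chad carried the sum of the list, 3677, 1205 and 675 CPM. Acan (47.9, 55.6 and 46.3 CPM), Hapln1 (1.16, 5.11 and 3.16 CPM) and Matn3 (0.253, 0.739 and 0.501 CPM) were highest in library 2, and Matn1, at a mean of 0.312 CPM, in library 3. The part of cartilage cells in these collagen levels was not tested.

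**Figure D4:**
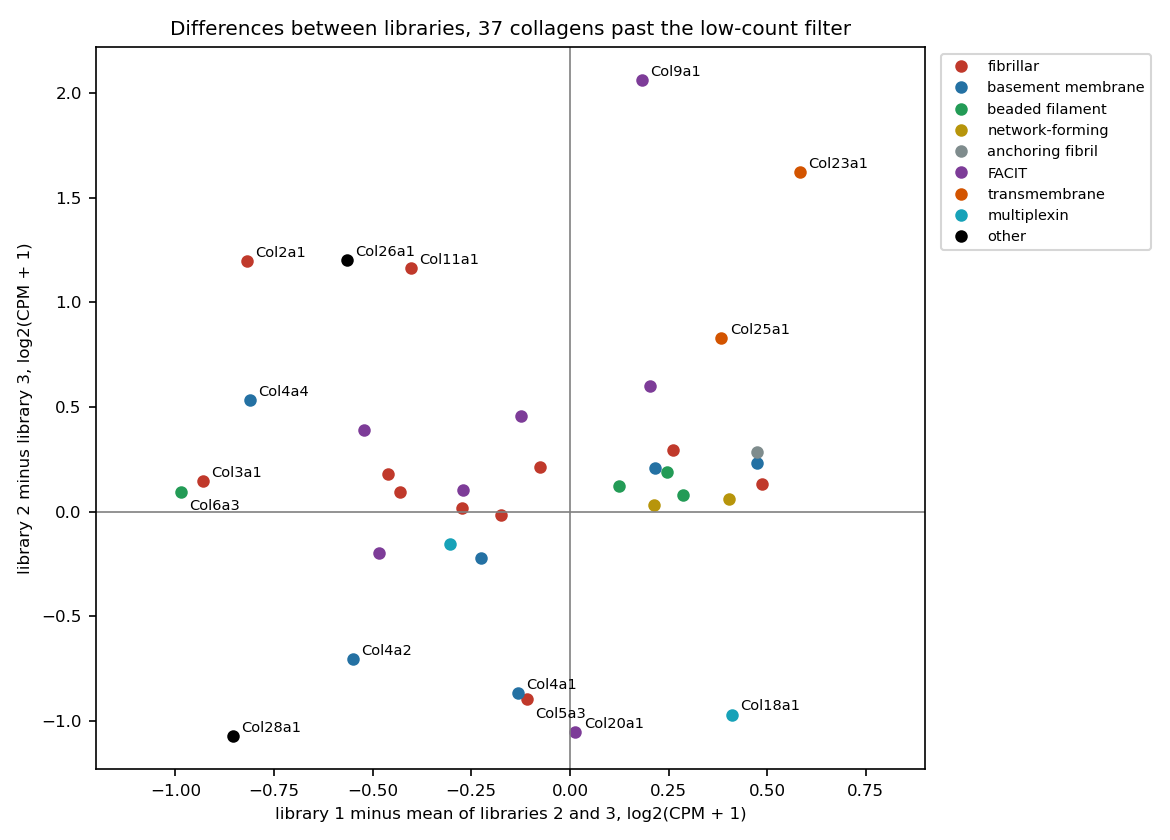
Each of the 37 collagens past the filter, placed by its difference between library 1 and the mean of libraries 2 and 3 (horizontal) and between libraries 2 and 3 (vertical), both on the log2(CPM + 1) scale, coloured by class. Col9a1 and Col23a1 lie at the top (library 2 above library 3), Col28a1 and Col20a1 at the foot, and Col3a1 and Col6a3 at the left (library 1 low).

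Genes that make and bind collagen were read from 6 lists of 42 genes in all. The variation test covered 36 of them, and edgeR called 0 variable between libraries, against 0.423% of all genes tested; the other 6 did not pass the filter. All 9 genes of prolyl hydroxylation, which stabilises the helix, passed the filter, with P4hb at 324 ± 26.9 and P4ha1 at 83.3 ± 4.96 CPM per kilobase (SD, n = 3). Of 5 genes for lysyl hydroxylation and glycosylation 4 passed, led by Plod1 at 65.9 ± 14.7 CPM per kilobase and Plod3 at 34.0 ± 1.89. Serpinh1, the collagen chaperone HSP47, stood at 1080.3 ± 193 CPM per kilobase, the highest of any gene on these lists, and with Fkbp10 led the 5 folding and export genes, of which 4 passed. For propeptide removal, 7 of 8 passed, led by the enhancer protein Pcolce at 489 ± 98.8 CPM per kilobase and the protease Adamts2 at 30.1 ± 8.64. Of 5 cross-linking enzymes 4 passed, led by Loxl1 (43.1 ± 11.7 CPM per kilobase) and Loxl3 (24.8 ± 9.06). Of 10 receptors 8 passed, with the kinase Ddr2 at 99.6 ± 13.3 and the uptake receptor Mrc2 at 93.4 ± 3.40 CPM per kilobase.

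The length of the longest Gly-X-Y run set the fibrillar class apart, whereas most other classes overlapped in it, and single FACIT genes reached the fibrillar share of exons of 54 bases (44.4% in Col22a1). A run of at least 20 triplets opening with a glycine codon was found in the transcript of all 44 collagens, against 64 of 22527 protein-coding genes as a whole (0.284%, collagens included). The shortest of the 44 longest runs had 23 triplets, in Col26a1. In fibrillar genes the longest run had 216 to 344 triplets and exceeded 300 in 9 of 11, with Col24a1 (216) and Col27a1 (217) as the exceptions. Of their 649 coding exons 305 had 54 bases (47.0%), against 0.443% of the 198507 coding exons outside collagens, and all 470 exons inside the longest runs were multiples of 9 bases, that is, whole triplets. Exons of 54 bases are the unit shown above for Col1a1, Col1a2, Col3a1 and Col5a2.

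Basement membrane genes carried their helix in 16 to 24 separate runs of at least 5 triplets, the longest of 39 to 66. Of their 296 coding exons 12 had 54 bases. The interrupted stretch of Col4a1 shown above was chosen with 3 triplets on each side. It may therefore not lie between runs counted here. Beaded filament genes had 2 to 4 runs, the longest of 37 to 87 triplets, and Col6a1 and Col6a2 both reached 87 whereas Col6a3 had 45. In FACITs the longest run had 32 to 113 triplets, with 113 in all 3 type IX genes and in Col22a1, and 32 in Col12a1, Col14a1 and Col20a1. The network-forming genes held runs of 60 or 61 triplets within only 2 coding exons, 0 of which had 54 bases. Genes with a helix of the same length could lie far apart in level: Col1a2 and Col2a1 both had 339 triplets, with means of 925 and 0.146 CPM per kilobase.

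**Figure D5:**
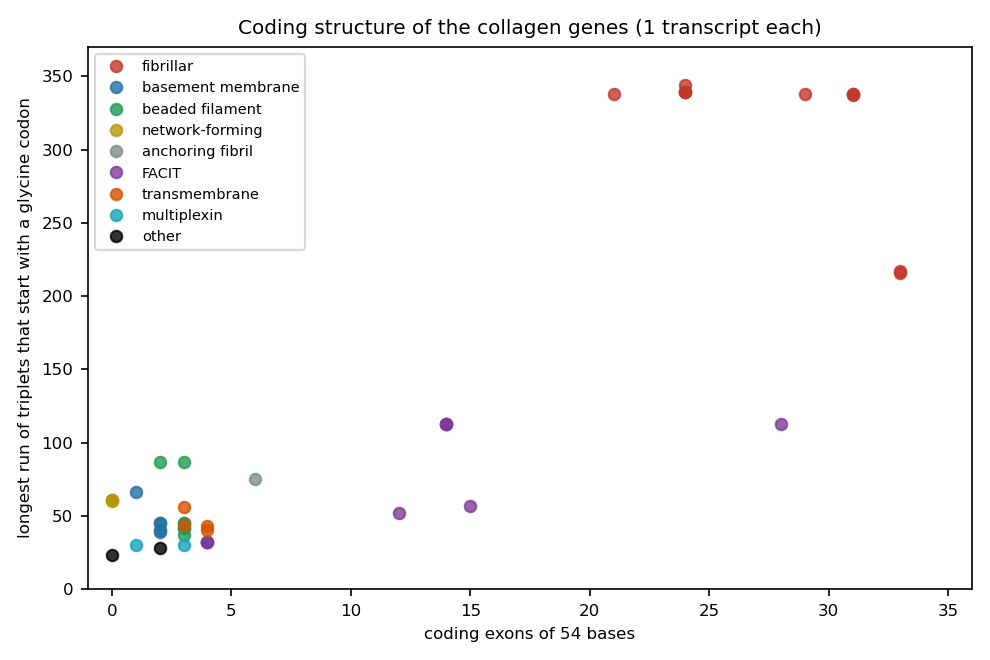
Number of coding exons of 54 bases (horizontal) and longest run of triplets that start with a glycine codon (vertical) in 1 transcript of each of the 44 collagen genes, coloured by class; equal values lie on top of each other. Fibrillar genes lie apart at the upper right, with runs of 216 to 344 triplets, and all other genes have runs of at most 113.

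Several collagen genes lie side by side in the genome. Col4a1 and Col4a2 start head to head on chromosome 8 and overlap by 22 bp, Col4a3 and Col4a4 lie head to head 71 bp apart on chromosome 1, and Col4a5 and Col4a6 lie head to head 1308 bp apart on chromosome X. Of these neighbours, Col4a1 and Col4a2 were both highest in library 3, whereas Col4a3 and Col4a4 were highest in different libraries. Col3a1 and Col5a2 lie tail to tail 24614 bp apart on chromosome 1, and their mean levels were 352 and 45.7 CPM per kilobase. Col6a6, Col6a5 and Col6a4 lie in a row on chromosome 9, and of these Col6a5 alone passed the filter. Exons of 13 collagens overlapped another annotated gene, by more than 5% of their length in Col4a3 (5.65%) and Col9a3 (6.07%). Whether strand was used in the counting is not given in the sources used here, so reads from these overlaps are uncertain.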

How the data were processed

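Counts per gene were used as deposited: whole numbers, not normalized, whose totals differ between libraries. The table named in the labels is a normalized one, but the values analysed here are raw. HTSeq 0.5.3, DESeq2 1.22.1 and the genome build mm10 are named in the submitters' processing notes. The aligner, annotation release and strand setting are not given in the sources used here. Per the labels' protocols, 2 ng of RNA (integrity number 9.7 to 10) was amplified over 12 cycles with a low-input kit, and 10 ng of cDNA was made into libraries with 8 PCR cycles and read as paired 50 bp ends.

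Rows for reads assigned to no gene (45.6%, 39.1% and 39.6% of the totals) were left out. TMM scaling factors were computed in edgeR 4.0.16 (R 4.3.3) from genes past filterByExpr at a minimum count of 10. Variation between libraries was tested with edgeR's goodness-of-fit chi-square on 2 degrees of freedom in an intercept-only model at the trended dispersion, with Benjamini-Hochberg adjustment over 14409 genes and a threshold of 0.05. The test was also run on simulated data, drawn with the mean levels and fitted dispersions of the real counts. DESeq2 1.42.0 gave alternative size factors. Exon, transcript and coding lengths, GC content and glycine runs came from GENCODE M21, in which 46488 gene rows were matched. Chain ratios were tested by exact sign-flip permutation (scipy 1.17.1), two-sided. Differences on the log2(CPM + 1) scale use a pseudocount of 1 and understate the change of low genes.

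Values in every library are given for the 12 highest collagens per kilobase, each chain of the 18 pairs, the highest gene of each class and any collagen called variable; at most the 2 highest genes of another list are named. Acan, Col2a1, Hapln1, Matn1 and Matn3 were named after their values were seen. 1 marker list is not reported here. The genes, classes, pairs and lists were chosen with earlier results of these data known. Alternatives were other size factors, filters, dispersion and lengths, removal of GC content and length trends, and leaving out each library.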

Additional observations from a re-analysis of the deposited data

Results flagged for a closer look

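Of the 7 collagens that did not pass the low-count filter, 6 had more counts in at least 1 library than the 3 that a count of 0 allows. They entered the order of levels, but neither the chain ratios nor the variation test on filtered genes. Col22a1, a FACIT of tissue junctions such as that of muscle and tendon, had 1, 37 and 1 counts in libraries 1, 2 and 3. Col17a1, a hemidesmosome collagen of epithelia, had its highest count, 33, in library 2. Col13a1, a transmembrane collagen, reached 27 counts in library 2. Col6a6, a type VI chain, reached 20 counts, also in library 2. Col10a1 had 10 counts in library 3 and 0 in the others. Col6a4 had 5 counts in library 1 and 0 in the others. Col19a1, the remaining gene, had 0, 2 and 0 counts.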

How the results depend on the processing

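The number of genes called variable between libraries was 61, and 170 with no low-count filter, 179 with a mean count of at least 10, 104 with GC content and length trends removed, and 15 to 33 with 1 library left out. The number of collagens called was 0 to 1 with 1 library left out, the 1 being Col9a1 without library 1, and 0 under the 6 other alternatives. The collagens' share was 1.16% per kilobase against 3.16% of counts. By longest transcript the class shares became 64.3% fibrillar, 23.1% beaded filament, 5.16% network-forming and 5.12% FACIT. By coding length they became 1.51% basement membrane, 8.15% network-forming, 0.00459% anchoring fibril, 4.47% FACIT, 0.238% transmembrane, 0.428% multiplexin and 0.136% others. Of 18 chain ratios, 3 changed direction. Col6a1/Col6a2 was -0.21 by coding length, Col8a1/Col8a2 was 0.40 by longest transcript and 0.55 by coding length, and Col9a1/Col9a2 ran from -0.71 to 0.24 with 1 library left out. The other size factors cancel within a class share, so they could not move it. Removal of the GC content trend moved no mean class share by more than its SD. That trend was fitted to the deviation of each library from a gene's mean, so it could move a mean share only little. No paired analysis was possible because all libraries belong to 1 group. Levels between genes depend on the length each is divided by, and 3 libraries limit every ratio test to a p of 0.25.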
